A study of Homo sapiens with 10 samples.

Results

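The interleukin-1 (IL-1) family ligands and receptors were followed through 20 probe sets that the platform annotation assigns to exactly 1 gene symbol among 10 genes. These genes are the ligands IL1A, IL1B, IL18 and IL33, the antagonist IL1RN, the receptor chains IL1R1, IL1RAP and IL18R1, the decoy IL1R2 and the receptor-like IL1RAPL1. The arrays held 54613 probe sets other than controls, representing 19775 genes with 1 symbol. RNA came from HuCCT1, an established human cholangiocarcinoma (bile duct cancer) line, with 5 arrays of cells carrying the construct labelled YAPS94A and 5 arrays of cells carrying an empty vector. All 10 arrays share the line and its growth medium, and no allele or agent other than the vectors is named. YAP1 is the co-activator that the Hippo kinases restrain. The series title and sample labels name the substitution S94A, known to weaken binding of YAP1 to TEAD factors, whereas the design text names the constitutively active S127A. The array values do not settle which was used, so the construct keeps its sample label. Cells were transfected, per the design text, and whether they were pools or clones is not stated. Nor is it stated whether the 5 arrays of a group are separate cultures, and p-values here therefore rest on array-to-array spread that could be purely technical.

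IL-1 alpha (IL1A) and IL-1 beta (IL1B) are inflammatory cytokines that bind the receptor chain IL1R1, which then recruits the co-receptor IL1RAP and signals through MYD88, IRAK kinases and TRAF6 to NF-kB. IL1RN occupies IL1R1 without recruiting the co-receptor, and IL1R2 binds ligand but lacks a signalling domain, so both restrain the pathway. IL-1 beta and IL-18 are made as precursors and cut by the inflammasome protease caspase-1, while IL-1 alpha can act uncut. Epithelial cells, bile duct cells among them, can make and answer several of these cytokines.

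The start regions of 4 windows are shown because IL1A, IL1B and IL1R1 were lower and IL1RN was higher in cells with the construct. They are RefSeq promoter windows of GRCh38.p14, each with 250 bases before and 50 after an annotated start. Capitals mark matches, on either strand, to TGANTCA (AP-1-like) or CATTCC (TEAD-like). For IL1RN and IL1R1 the window shown is the only one of several with such a match, so it does not stand for the others.
IL1A (chr2:112784444-112784743, minus strand): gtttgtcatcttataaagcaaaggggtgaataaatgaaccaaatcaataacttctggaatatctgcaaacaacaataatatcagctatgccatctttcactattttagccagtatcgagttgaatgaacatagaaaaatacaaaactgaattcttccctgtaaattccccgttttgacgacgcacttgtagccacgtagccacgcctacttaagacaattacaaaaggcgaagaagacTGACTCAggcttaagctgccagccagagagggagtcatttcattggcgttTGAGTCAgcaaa
IL1B (chr2:112836730-112837029, minus strand): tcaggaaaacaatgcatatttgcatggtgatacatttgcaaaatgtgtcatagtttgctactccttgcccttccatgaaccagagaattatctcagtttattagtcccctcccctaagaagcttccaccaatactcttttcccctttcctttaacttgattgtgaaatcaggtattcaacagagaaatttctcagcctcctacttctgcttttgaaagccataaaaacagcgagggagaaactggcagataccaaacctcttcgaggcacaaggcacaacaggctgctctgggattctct
IL1RN (chr2:113117721-113118020, plus strand): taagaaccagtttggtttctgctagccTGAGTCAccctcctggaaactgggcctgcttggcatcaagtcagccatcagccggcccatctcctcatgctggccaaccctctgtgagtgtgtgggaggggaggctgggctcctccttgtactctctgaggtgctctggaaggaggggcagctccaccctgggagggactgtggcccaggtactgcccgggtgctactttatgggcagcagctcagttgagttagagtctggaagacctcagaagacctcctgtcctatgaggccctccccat
IL1R1 (chr2:102141541-102141840, plus strand): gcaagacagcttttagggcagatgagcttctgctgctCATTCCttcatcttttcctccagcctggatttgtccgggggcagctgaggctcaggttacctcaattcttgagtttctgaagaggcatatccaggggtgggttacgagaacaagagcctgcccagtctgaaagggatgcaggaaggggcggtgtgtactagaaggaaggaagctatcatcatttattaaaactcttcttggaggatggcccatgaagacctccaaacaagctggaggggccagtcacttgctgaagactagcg
The RefSeq table held 18 windows for 9 of the 10 genes. A TGANTCA match occurred in 3 of these 18 windows, against 7.71% of all 35116 windows, and those 3 were both overlapping IL1A windows and the first of 3 IL1RN windows. The IL1A window above has 2 such matches and the IL1RN window has 1. CATTCC or its reverse complement occurred in 1 of the 18 windows, the IL1R1 window above, against 14% of all windows. An NF-kB-like pattern, GGGA and CC with any 4 bases between them, occurred in 5 windows, against 25.6% of all, and in none of the 4 shown. The IL1R1 window shown is the second of 4 for that gene, and the fourth, not shown, held 1 NF-kB-like match. The IL1B window held no match to these 3 patterns. Each window shown matched at most 1 of the patterns, so no matches to different patterns overlapped, and a match is a run of letters rather than evidence of binding.

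Most of the family differed between the vectors, in both directions. Of the 20 probe sets 8 were higher and 7 lower in cells with the construct, and 5 did not pass the test (limma on log2 signals, Benjamini-Hochberg adjusted over all probe sets, threshold 0.05). Among all probe sets 28.6% passed, 13.9% higher and 14.7% lower, and among those with a mean at or above the background level described next 42.5% passed. Of the members, 15 lay at or above that level, and 13 of these passed. The median absolute difference was 0.57 log2 units over the 20 probe sets, against 0.093 over all. Arrays of the vectors were fully separated on 15 of the 20 probe sets, and on 23% of all. A difference of at least 2-fold that passed the test was seen for 6 of the 20 and for 2.2% of all. The members carried no common sign, with a median difference of 0.059, against -0.0084 over all probe sets.

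No detection calls were used, so a background level was taken from 107 olfactory receptor probe sets, genes that a bile duct line would not be expected to use. The 95th percentile of their means was a log2 signal of 5.84, with a median of 4.29. The 10 arrays were otherwise alike, with medians between 6.25 and 6.28 and pairwise correlations of 0.987 to 0.990 across vectors and 0.996 to 0.999 inside them. YAP1 itself was higher on each of its 3 probe sets, by 0.60 ± 0.065, 0.56 ± 0.10 and 0.52 ± 0.11 (log2 difference ± SE, limma adjusted p up to 0.0038), with no overlap between the groups. The bile duct line's keratins KRT7 and KRT19 read 13.76 and 14.30 with the construct and 13.59 and 14.07 with empty vector. Leukocyte and macrophage markers, those of the classical producers of IL-1 beta, gave 0 of 9 genes past limma and 0 at an unadjusted p under 0.05. Of these 9 markers 6, PTPRC and CD163 among them, lay under the background level in both groups, and the mean of the list ranged from 5.19 to 5.31 with the construct and from 5.23 to 5.31 with empty vector. Of 7 epithelial and bile duct markers 5 were higher past limma, KRT7 and KRT19 among them, and 2 did not pass. That is 71.4% past, against 36.3% of all genes, with a median difference of 0.17. The fibroblast and hepatocyte lists each held 1 gene that passed. Of 6 fibroblast markers LUM, the matrix proteoglycan lumican, averaged 10.70 ± 0.094 with the construct and 8.04 ± 0.20 with empty vector (SD), a rise of 2.67 ± 0.088 (limma adjusted p = 5.6e-10), while COL1A1 and DCN did not pass and COL1A2, COL3A1 and PDGFRB lay under the background level in both groups. Of 5 hepatocyte markers CYP2E1 rose by 0.39 ± 0.097 (adjusted p = 0.00706), with overlapping groups. The endothelial markers gave 0 of 5 past limma and 1 at an unadjusted p under 0.05. The part of these genes in the IL-1 family results was not tested. In RNA from whole cultures, fewer cells making a transcript and less RNA per cell cannot be told apart.

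**Figure D1:**
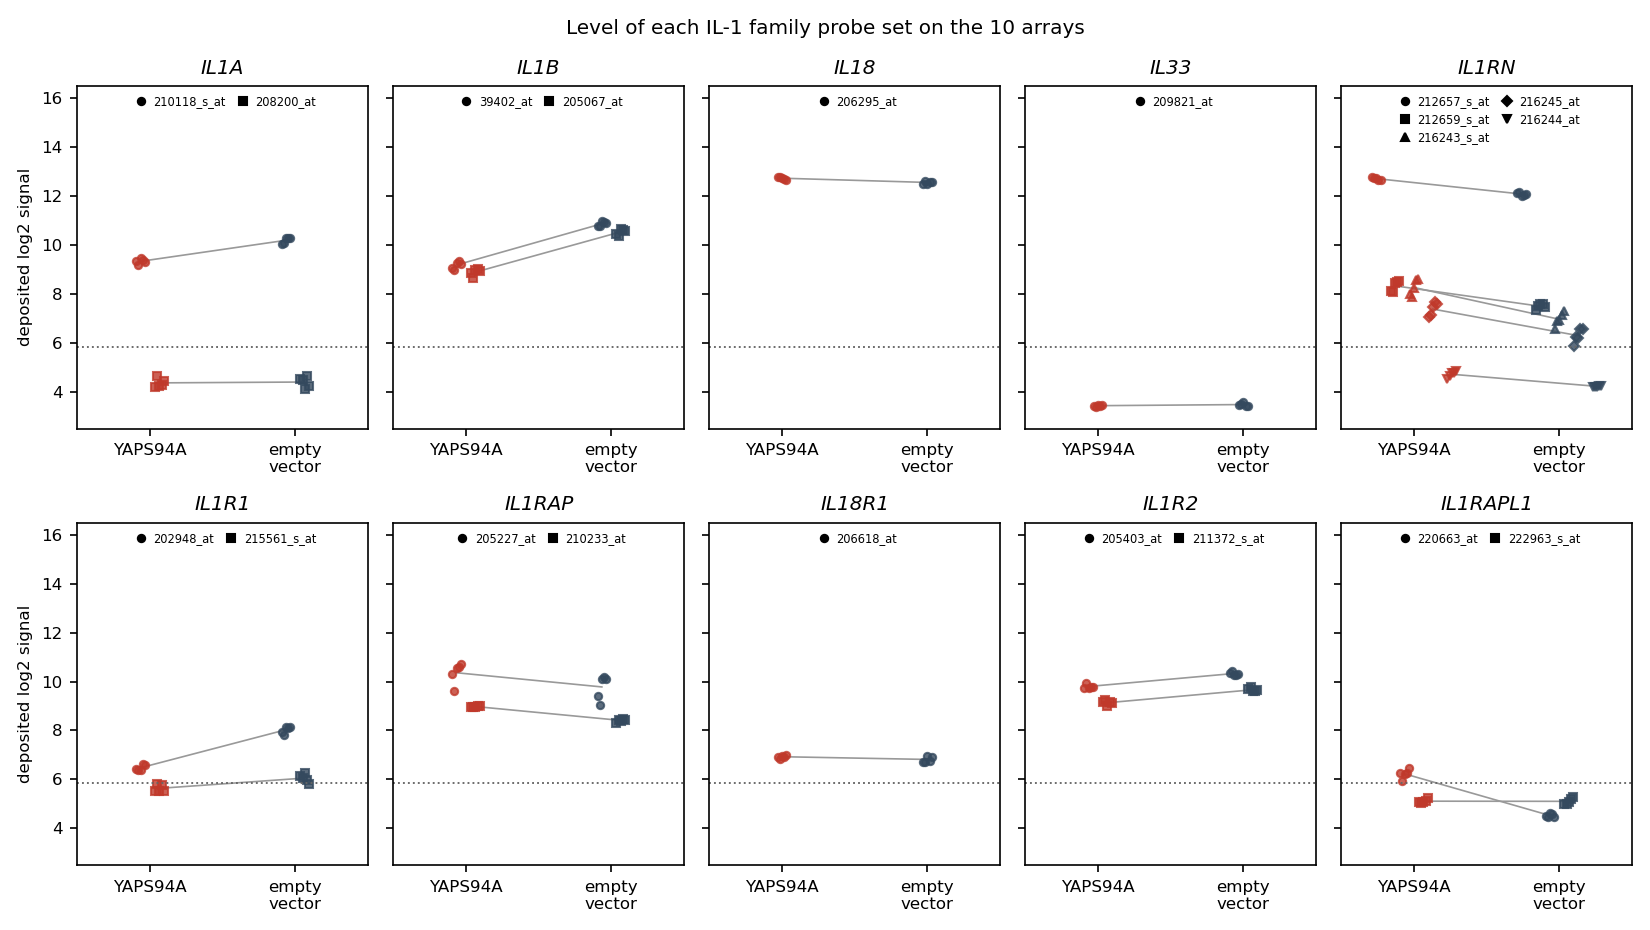
Deposited log2 signal of the 20 IL-1 family probe sets on 5 YAPS94A arrays (red) and 5 empty vector arrays (dark), with 1 symbol shape per probe set grey lines joining group means and the background level of 5.84 dotted. IL1B and IL1R1 sit lower and IL1RN higher with the construct, with no overlap, while IL33 lies far below the line in both groups.

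Both agonists that bind IL1R1 were lower in cells with the construct, IL1B more than IL1A. On the brighter IL1B probe set, 39402_at, the YAPS94A arrays read 9.08, 9.0, 9.25, 9.37 and 9.23, against 10.76, 10.77, 10.98, 10.94 and 10.90 on the empty vector arrays. Every construct array lay at least 1.39 below every empty vector array, a gap several times the range within either group (0.37 and 0.22). The difference was -1.69 ± 0.073 (SE, limma adjusted p = 1.12e-08, n = 5 each), which leaves 31.1% of the empty vector signal. The second IL1B probe set, 205067_at, averaged 8.89 ± 0.16 with the construct and 10.54 ± 0.12 with empty vector (SD), a difference of -1.65 ± 0.080 (adjusted p = 2.95e-08). The 2 probe sets of IL1B changed by amounts that could not be told apart, differing by -0.041 (exact permutation p = 0.27, adjusted over 10 such pairs 0.337).

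IL1A read 9.34, 9.18, 9.45, 9.38 and 9.32 on the YAPS94A arrays and 10.04, 10.08, 10.28, 10.30 and 10.27 on the empty vector arrays with 210118_s_at. The groups were separated by 0.59, and the difference was -0.86 ± 0.067 (limma adjusted p = 1.59e-06), or 55.1% of the empty vector signal. The other IL1A probe set, 208200_at, lay under the background level in both groups (4.37 ± 0.19 and 4.40 ± 0.22, SD) and differed by -0.035 ± 0.11 (adjusted p = 0.87). It read no IL1A signal above background, and the change of the bright probe set minus its change was -0.82 (exact permutation p = 0.0079, adjusted 0.0265). IL1B fell more than IL1A, with a difference between their changes of -0.83 log2 units. Its two-sided p by exact permutation was 0.0079, which is as low as 5 arrays against 5 can reach, and 0.0079 after adjustment over the 7 pairs of members compared.

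IL18 and IL33, agonists that use other receptors of the family, gave no fall past the test, and IL33 lay under the background level. IL18, the caspase-1 substrate that promotes interferon gamma production, read 12.78, 12.78, 12.74, 12.71 and 12.66 with the construct, against 12.48, 12.63, 12.50, 12.59 and 12.59 with empty vector. All construct arrays lay above all empty vector arrays, but by only 0.031. The rise was 0.17 ± 0.043 (limma adjusted p = 0.00896), 1.13-fold, and without the arrays numbered 1 and 2 it was 0.14 ± 0.049 and no longer passed (adjusted p = 0.0709). The changes of IL18 and IL1B differed by 1.86 (exact permutation p = 0.0079, adjusted 0.0079). Both genes were fully separated, in opposite directions, so this p had to be the lowest possible and adds no support of its own. IL33, a nuclear alarmin of barrier cells, averaged 3.43 ± 0.03 with the construct and 3.48 ± 0.08 with empty vector (SD), below the median of the olfactory receptor probe sets. Its difference of -0.046 ± 0.043 (adjusted p = 0.495) describes a probe set near background rather than a transcript level.

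The antagonist IL1RN was higher on all 5 of its probe sets. The brightest, 212657_s_at, read 12.79, 12.74, 12.72, 12.66 and 12.65 with the construct, against 12.13, 12.16, 12.01, 12.05 and 12.08 with empty vector. The groups lay 0.49 apart, over 3 times the range within either. Its rise was 0.63 ± 0.043 (limma adjusted p = 5.16e-07), or 1.55-fold. On 212659_s_at the arrays with the construct averaged 8.33 ± 0.21 and those with empty vector 7.5 ± 0.10 (SD), a rise of 0.84 ± 0.095 (adjusted p = 3.45e-05).

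The other IL1RN probe sets had larger standard errors than the brightest. On 216243_s_at the arrays with the construct read 7.99, 7.90, 8.23, 8.57 and 8.63, and those with empty vector 6.55, 6.88, 6.95, 7.13 and 7.31. Within each vector the arrays numbered 4 and 5 were the highest, and the ranges of 0.73 and 0.75 were about as wide as the gap of 0.59 between the groups. The rise there was 1.30 ± 0.17 (adjusted p = 9.32e-05), and on 216245_at it was 1.09 ± 0.16 (adjusted p = 0.000221). The fifth probe set, 216244_at, rose by 0.50 ± 0.059 but lay under the background level in both groups (4.72 and 4.22). Differences in change between the brightest IL1RN probe set and the other 4 did not pass, the largest being -0.67 against 216243_s_at (exact permutation p = 0.0238, adjusted 0.0595).

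Relative to both agonists the antagonist was higher in cells with the construct. On the brightest probe sets IL1RN gained 2.32 log2 units relative to IL1B and 1.49 relative to IL1A. The exact permutation p was 0.0079 for both, and 0.0079 after adjustment. Since IL1RN rose and both agonists fell without overlap, that p had to be the lowest possible and adds no support of its own. The gap between the IL1RN and IL1B signals was 3.53 ± 0.19 with the construct and 1.21 ± 0.16 with empty vector (SD, n = 5 each). Signals of different probe sets are not on a common scale, so only the change of this gap, not its size, is interpretable.

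**Figure D2:**
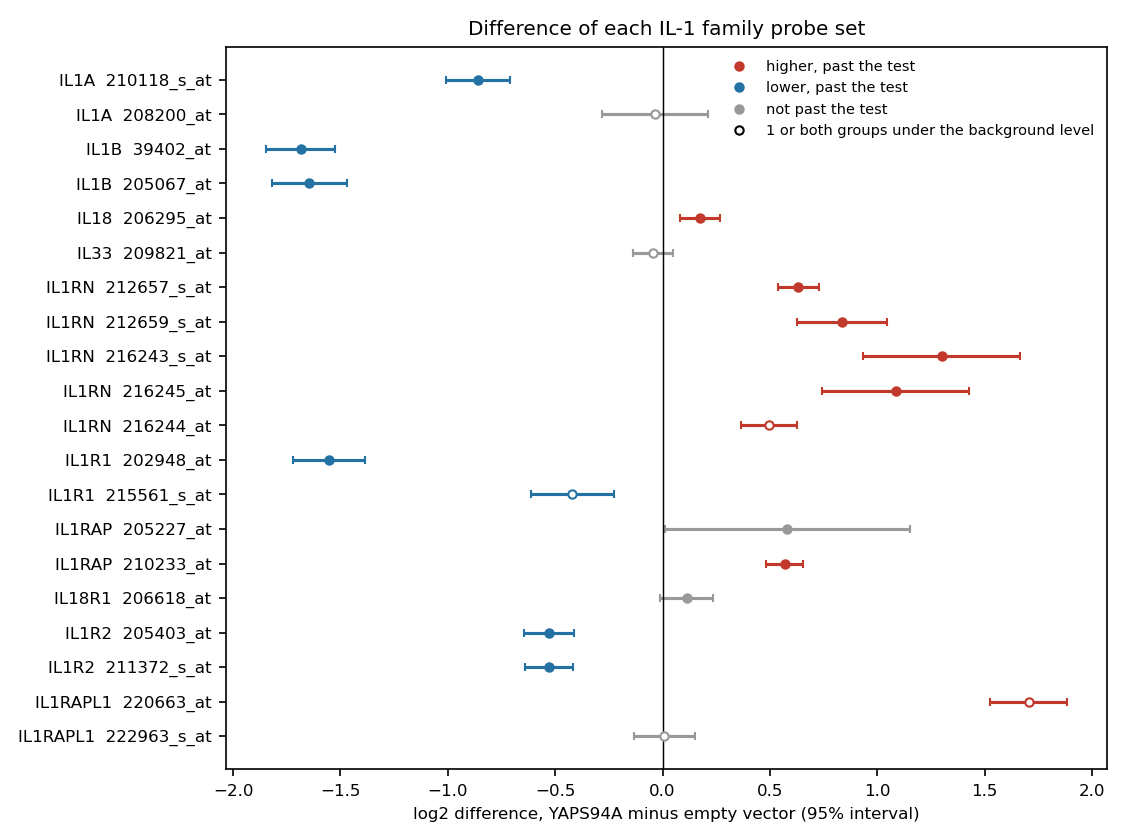
Log2 difference, YAPS94A minus empty vector, of each IL-1 family probe set with its unadjusted 95% interval from the limma fit, with ligands at the top, receptors at the bottom and open symbols where 1 or both groups lie under the background level. IL1B (-1.69) and IL1R1 (-1.55) lie farthest to the left, all 5 IL1RN probe sets lie to the right, and 1 probe set of IL1RAPL1 (1.70) lies farthest to the right.

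The signalling receptor of both falling agonists, IL1R1, was also lower. On 202948_at the arrays with the construct read 6.41, 6.39, 6.38, 6.61 and 6.58, against 7.94, 7.80, 8.15, 8.10 and 8.15 with empty vector. The groups were 1.19 apart, with ranges of 0.23 and 0.35 inside them. IL1R1 fell by 1.55 ± 0.077 on the log2 scale (limma adjusted p = 3.54e-08), to 34.1% of the empty vector signal. The mean with the construct, 6.47 ± 0.11 (SD), was not far above the background level. The second probe set, 215561_s_at, averaged 5.63 ± 0.14 with the construct, under the background level, and 6.05 ± 0.17 with empty vector. Its fall of 0.42 ± 0.089 (adjusted p = 0.00349) was smaller, and the change of the first minus that of the second was -1.13 (exact permutation p = 0.0079, adjusted 0.0265).

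The decoy IL1R2 fell too, by less. Its probe set 205403_at read 9.75, 9.95, 9.72, 9.79 and 9.78 with the construct and 10.37, 10.43, 10.25, 10.26 and 10.32 with empty vector. The groups did not overlap, and array 2 was the highest in both. The difference was -0.53 ± 0.053 (limma adjusted p = 1.19e-05), and 211372_s_at gave -0.53 ± 0.051 (adjusted p = 8.38e-06), so both probe sets left 69.2% of the empty vector signal. On the brightest probe sets, 202948_at and 205403_at, IL1R1 fell more than IL1R2, with a difference between their changes of -1.02 (exact permutation p = 0.0079, adjusted 0.0079). On IL1R1 215561_s_at, under the background level with the construct, the difference was -0.42, smaller in size than that of either IL1R2 probe set.

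The co-receptor IL1RAP, shared by the receptors for IL-1, IL-33 and IL-36, went the other way on 1 of its probe sets. On 210233_at it read 8.95, 8.94, 8.97, 9.02 and 9.01 with the construct, against 8.31, 8.43, 8.41, 8.48 and 8.42 with empty vector. The 5 construct arrays lay within 0.074 of each other and all above the empty vector arrays. The rise was 0.57 ± 0.040 (limma adjusted p = 6.09e-07), 1.48-fold.

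The brighter IL1RAP probe set, 205227_at, gave nearly the same difference with a wide spread. It read 10.29, 9.60, 10.56, 10.61 and 10.73 with the construct and 9.41, 9.06, 10.11, 10.20 and 10.11 with empty vector. The arrays numbered 1 and 2 were the lowest in both groups, and the groups overlapped. The difference was 0.58 ± 0.26 and did not pass (limma adjusted p = 0.128), and its sign was positive in all 5 pairs of arrays with the same number. With the array number as a block it passed (0.58 ± 0.068, adjusted p = 0.000255). Without YAPS94A array 2 it was 0.77 ± 0.22 (adjusted p = 0.0251) and without the arrays numbered 1 and 2 of both vectors 0.49 ± 0.058 (adjusted p = 0.000534). The 3' minus 5' signal of the ACTB and GAPDH control probe sets, a sign of RNA quality, was 0.68 and 0.82 on YAPS94A arrays 1 and 2 and 0.45 to 0.54 on the other YAPS94A arrays. On empty vector arrays 1 and 2 it was 0.85 and 0.68, and 0.48 to 0.68 on the others. With it as a covariate the IL1RAP difference was 0.45 ± 0.16 (adjusted p = 0.051), and its part in the spread was not tested further. For the IL1RN probe sets 216243_s_at and 216245_at the same measure as covariate gave 1.20 ± 0.052 and 0.99 ± 0.063. Without it they gave 1.30 ± 0.17 and 1.09 ± 0.16. Between the vectors this measure differed by -0.052 (exact two-sided permutation p = 0.556). The change of IL1R1 minus that of IL1RAP on this brighter probe set was -2.13 (exact permutation p = 0.0079, adjusted 0.0079).

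IL18R1, the ligand-binding chain of the IL-18 receptor, read 6.92, 6.84, 6.97, 6.92 and 6.98 with the construct and 6.72, 6.72, 6.96, 6.77 and 6.91 with empty vector. The groups overlapped, and the difference of 0.11 ± 0.055 did not pass (limma adjusted p = 0.174). Its unadjusted 95% interval ran from -0.010 to 0.23.

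IL1RAPL1, a receptor-like protein best known from neuronal synapses, rose on 1 probe set and did not pass on the other. On 220663_at the arrays with the construct read 6.25, 5.95, 6.21, 6.26 and 6.47, against 4.49, 4.47, 4.61, 4.59 and 4.45 with empty vector. The groups were 1.34 apart, but the empty vector arrays lay under the background level and the construct arrays just above it. The rise of 1.70 ± 0.081 (limma adjusted p = 2.66e-08), 3.26-fold, is therefore less certain in size. On 222963_s_at, under the background level in both groups, the difference was 0.0072 ± 0.064 (adjusted p = 0.955), and the changes of the 2 probe sets differed by 1.70 (exact permutation p = 0.0079, adjusted 0.0265). This difference was the largest in size of the 20 by a small margin over IL1B, and the order of the 2 turned in some alternatives, such as with the RNA quality covariate (1.68 for IL1RAPL1 and -1.72 for IL1B). The genes whose profiles over the 10 arrays were most like that of 220663_at were ZNF606, RADX, TRIB2, HSD3B1 and SGPP2, with root mean square differences of 0.11 to 0.12 log2 units between the mean-centred profiles. Those 5 differed by 1.78, 1.79, 1.75, 1.64 and 1.87 between the vectors, so the likeness reflects a shared difference between 2 groups.

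Most of these genes lie in 2 groups on chromosome 2, receptors in one and ligands in the other. Genes past the test went in both directions in and beside the ligand group, whereas those in and beside the receptor group were all lower. In the receptor group IL1R2 and IL1R1 were lower, as was IL1RL1, the IL-33 receptor ST2 (-0.60 ± 0.072, limma adjusted p = 3.82e-05 over 19775 genes), whereas IL1RL2, the IL-36 receptor chain (-0.12 ± 0.064, adjusted p = 0.175), IL18R1 and IL18RAP did not pass. In the ligand group IL1A, IL1B and IL36G (-0.88 ± 0.073), an epithelial agonist under the background level with the construct and just above it with empty vector, were lower. Lying between and beside them, IL37, a family member known to dampen inflammation (0.83 ± 0.065), IL36RN, the IL-36 antagonist (0.31 ± 0.076, under the background level with empty vector), and IL1RN were higher. IL36A, IL36B and IL1F10 were under the background level in both groups. The brightest IL37 probe set ends in _x_at and is open to cross-hybridisation, but 221470_s_at also rose, by 1.04 ± 0.056. Of the genes in and beside the receptor group that are not members 3 of 8 were lower and 5 did not pass, and of those in and beside the ligand group 4 of 12 were higher, 3 lower and 5 did not pass. The shares over all genes were 36.3% past, 18.6% higher and 17.6% lower. Among the flanking genes MAP4K4, a kinase, was lower (-0.44 ± 0.048), as was the phosphate transporter gene SLC20A1 (-0.26 ± 0.051), and PSD4, next to IL1RN, was higher (0.48 ± 0.078).

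Neighbours were 30 genes above the median level, taken equally from both sides by start position where the chromosome end allowed. Their median difference was 0.019 around IL1A, 0.0091 around IL1B, -0.0068 around IL1RN and -0.075 around IL1R1 and IL1R2. Each of these was far smaller than the difference of the gene it surrounds. Around IL33 the median was -0.24.

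**Figure D3:**
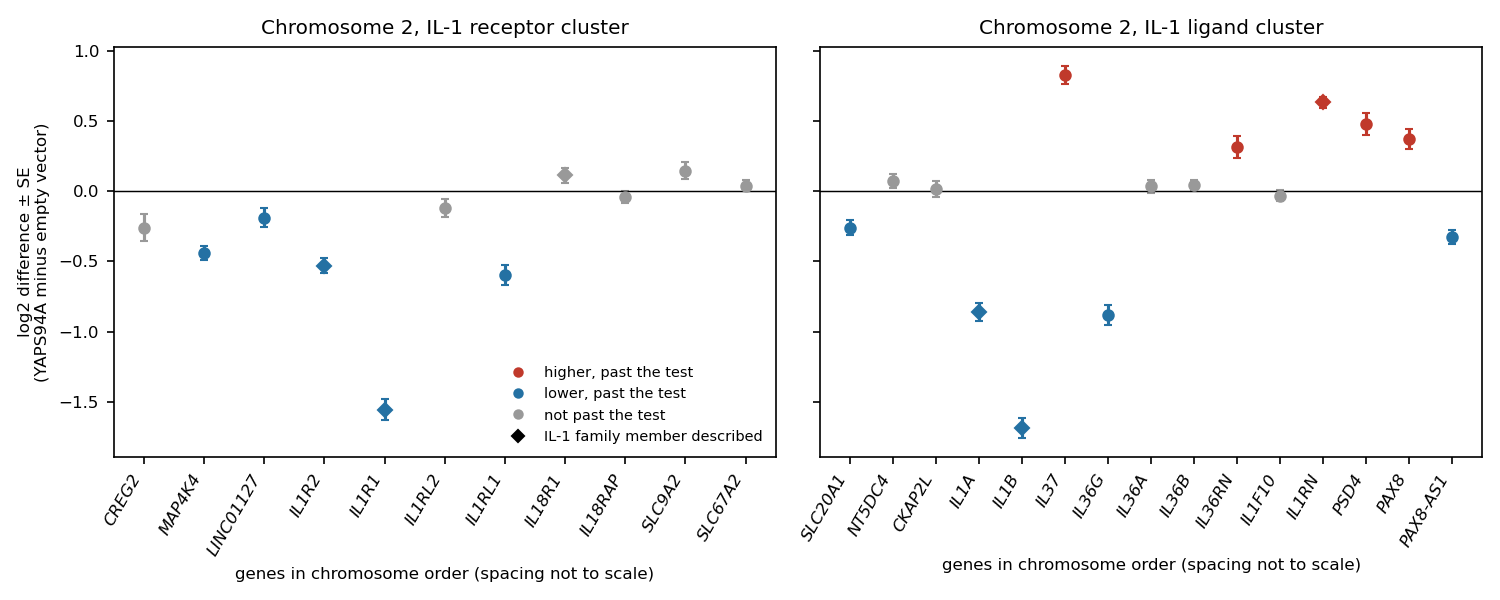
Log2 difference ± SE, YAPS94A minus empty vector, of the brightest probe set of each measured gene in and beside the IL-1 receptor group (left) and the IL-1 ligand group (right) of chromosome 2, in chromosome order. IL1B (-1.69) lies next to IL37 (0.83), and IL1R1 (-1.55) between IL1R2 (-0.53) and IL1RL2 (-0.12).

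Of the other 12 genes of the family 3 were higher, 2 lower and 7 did not pass, at the brightest probe set of each gene and adjusted over genes. Over all genes 36.3% passed, 18.6% higher and 17.6% lower, and 5 of these 12 lay under the background level in both groups. Besides the genes above, SIGIRR, a receptor that restrains IL-1 signalling, was higher (0.50 ± 0.11, limma adjusted p = 0.0031). IL18BP, the soluble trap for IL-18, differed by 0.23 ± 0.088 (adjusted p = 0.062).

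Components that carry the signal from the receptor passed the test about as often as all genes did. Of 17 measured 5 were higher, 1 lower and 11 did not pass (35.3% past, against 36.3% of all genes), with a median of 0.046. The adaptor MYD88 differed by 0.12 ± 0.086 (limma adjusted p = 0.314), the kinase IRAK1 by 0.046 ± 0.054 (adjusted p = 0.574) and UBE2N, a ubiquitin-conjugating enzyme that works with TRAF6, by -0.068 ± 0.031 (adjusted p = 0.111). TAB3, which links TRAF6 to the kinase TAK1, rose by 0.54 ± 0.050, and the ubiquitin ligase PELI1 rose by 0.51 ± 0.087. TRAF6 itself rose by 0.22 ± 0.039 (limma adjusted p = 0.000742), while CHUK, the kinase IKK alpha, fell by 0.29 ± 0.040. The negative regulator IRAK3 rose by 0.24 ± 0.086 with overlapping groups and only just passed (limma adjusted p = 0.0449).

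Genes that process and release IL-1 beta and IL-18 included several that rose. Of 22 measured 9 were higher, 3 lower and 10 did not pass (54.5% past), against 36.3% of all genes past, 18.6% higher and 17.6% lower. Among the higher genes CASP5 lay under the background level in both groups, and the median was 0.091, against -0.0038 for all genes. CASP1, which encodes caspase-1, read 11.27, 11.19, 11.31, 11.36 and 11.28 with the construct, against 10.25, 9.97, 10.16, 10.02 and 10.12 with empty vector. All construct arrays lay above all empty vector arrays, and the rise was 1.18 ± 0.055 (limma adjusted p = 1.19e-08), 2.26-fold. The other 4 CASP1 probe sets rose by 1.16 to 2.26. CARD16, a CASP1 relative without a protease domain that can inhibit it, rose by 1.51 ± 0.061, although the close similarity of the 2 sequences means that signal may be shared. A second CARD16 probe set lay under the background level in both groups (3.59 and 3.54) and differed by 0.057 ± 0.053 (adjusted p = 0.495).

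PYCARD, the inflammasome adaptor ASC, rose by 0.68 ± 0.053, CASP4, the non-canonical inflammasome protease, by 0.67 ± 0.036, CAPN1, a subunit of the calpain able to cut IL-1 alpha, by 0.59 ± 0.056 and GSDMD, the pore-forming gasdermin, by 0.53 ± 0.093. The sensors differed in direction. NLRP3 fell by 0.53 ± 0.052 and AIM2 fell by 0.73 ± 0.12 to a mean under the background level, whereas NLRP1 rose by 0.46 ± 0.085. GSDME, another gasdermin, fell by 0.81 ± 0.15, while CAPN2 and HAX1 were at -0.039 and 0.088 and did not pass.

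Of 31 genes known to respond to IL-1 26 were measured, and of these 21 were lower, 2 higher and 3 did not pass, with a median of -0.46. Among all genes 17.6% were lower and 18.6% higher. The list overlaps genes already known to be lower on these arrays, so its count is not independent evidence, and these genes also answer other NF-kB signals. PTGS2, the inducible cyclooxygenase, read 9.01, 8.76, 9.28, 9.47 and 9.51 with the construct and 12.04, 12.08, 12.44, 12.48 and 12.38 with empty vector. The groups were far apart, and the difference was -3.08 ± 0.15 (limma adjusted p = 1.24e-08). The neutrophil chemokines CXCL6 and CXCL1 differed by -3.87 ± 0.085 and -2.94 ± 0.043, and CXCL6 was under the background level with the construct. The cytokine IL11 differed by -2.81 ± 0.073.

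The list was not uniform. IL6 fell by 0.71 ± 0.14 (limma adjusted p = 0.00122). CCL2, the monocyte chemokine, rose by 2.45 ± 0.10 and PTGES, the prostaglandin E synthase downstream of PTGS2, by 0.85 ± 0.056. The complement gene C3 (-0.27 ± 0.099, adjusted p = 0.0571) and the adhesion receptor gene VCAM1 (-0.079 ± 0.075, under the background level in both groups) did not pass.

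**Figure D4:**
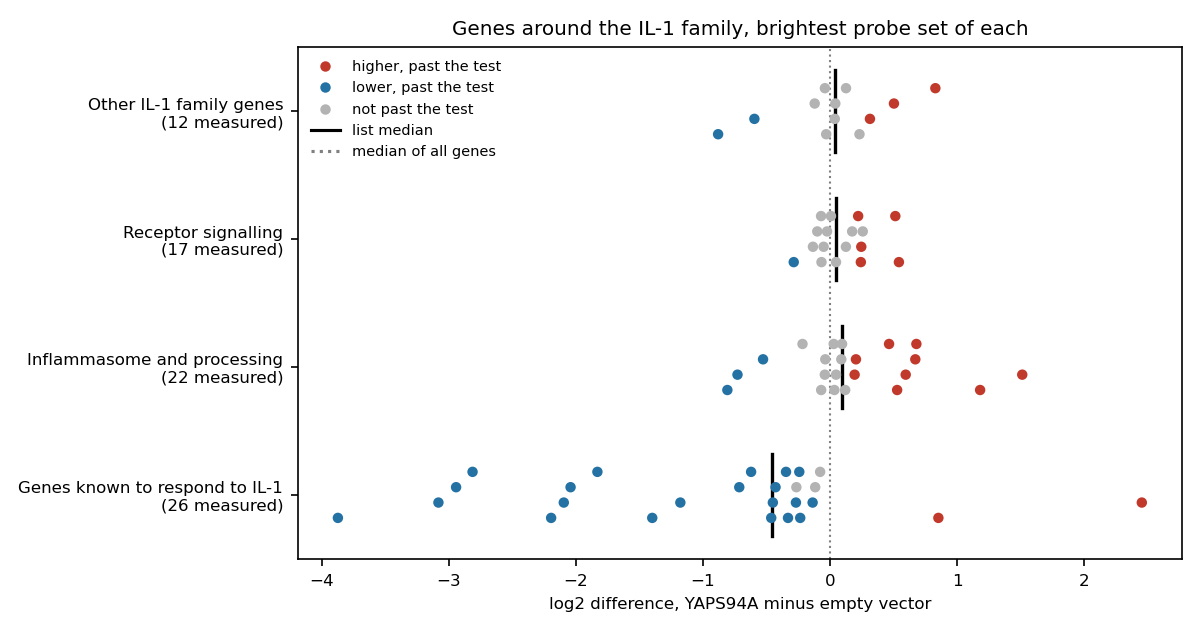
Log2 difference, YAPS94A minus empty vector, of the genes around the IL-1 family, 1 point per gene (its brightest probe set), with list medians as bars and the median of all genes as a dotted line. Most genes known to respond to IL-1 lie to the left (median -0.46), CCL2 (2.45) lies far to the right, and the inflammasome list has CARD16 (1.51) and CASP1 (1.18) at its right end.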

How the data were processed

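Total RNA for the 10 Affymetrix arrays went through NuGEN Ovation amplification and biotin labelling, per the labels' protocols. The log2 signals were used as the authors deposited them, and no source used here gives their probe summary or normalization. Gene names come from GEO's platform annotation, in which 41097 probe sets had 1 symbol, 1801 several and 11777 none, and symbols were updated through RefSeq of GRCh38.p14, which held 41043 of the 41097. The 62 control probe sets were left out.

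The vectors were compared with limma 3.58.1 in R 4.3.3 (lmFit and eBayes, no covariate, two-sided, Benjamini-Hochberg) over all 54613 probe sets, and over 19775 genes, each at its brightest probe set, for gene lists and neighbours. Differences are YAPS94A minus empty vector with SE. Unequal changes were tested with exact permutation tests of per-array gaps, over 7 pairs of members and 10 pairs of probe sets. The number of arrays sets the precision. The fit was tested on simulated data with independent noise on each array, so that test does not cover same-numbered arrays that deviate together. No 2 arrays held identical values.

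The members, gene lists, motifs and tests were chosen with earlier results of these data known. Named genes were all members, the 4 passing genes with the largest difference and up to 2 brightest not passing from each of the 4 related gene lists, genes beside the members, the 5 most similar profiles and YAP1. MYD88, TRAF6, PYCARD, CASP4, CAPN1, GSDMD, NLRP1, NLRP3, CASP5, IL6, CCL2, PTGES and the markers of other cell types were named after their values were seen. Alternatives covered 2 renormalizations, filters, other gene summaries, other variance models, the array number as a block, an RNA quality covariate, arrays left out and neighbours subtracted.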

Additional observations from a re-analysis of the deposited data

How the results depend on the processing

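Each of the 15 passing member probe sets kept its direction and its call in every alternative that could include it, except IL18 without the arrays numbered 1 and 2 (adjusted p = 0.0709). The counts were 8 to 9 higher and 7 lower when 1 array was left out, and 10 and 7 with the neighbour median subtracted, where IL33 (0.20 ± 0.043, adjusted p = 0.00321, opposite in sign to its own difference) and IL18R1 (0.19 ± 0.055, adjusted p = 0.0194) passed. Counts fell where fewer features were tested, to 5 higher and 4 lower of 13 without _x_at and _s_at probe sets, to 3 and 4 of 10 genes at the brightest probe set, and to 4 and 4 of 10 with the mean of probe sets, where IL1RAP passed (0.57 ± 0.14, adjusted p = 0.00542) and averaging with the dim probe sets gave -0.45 for IL1A, -0.99 for IL1R1 and 0.86 for IL1RAPL1. Alternatives for the list counts were added after the data were seen. They gave 19 to 22 genes known to respond to IL-1 lower, 2 higher, and 8 to 10 inflammasome genes higher.

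Same-numbered arrays deviated together with correlations of 0.063 to 0.54 over probe sets, above 0.1 in 4 of 5 pairs, and 0.10 to 0.59 over genes, above 0.1 in 5 of 5. The member probe sets were tested over all probe sets, where the criterion of 0.1 in every pair was not met. There 4 of 10 arrays correlated best with their own number, so the numbers were not taken as a pairing, although this was close. Gene lists and neighbours were fitted over genes, where the criterion was met, and those main fits had no block either. Their adjusted p-values therefore leave out a pairing that the criterion would have allowed. With the number as a block 9 member probe sets were higher and 7 lower, the added one being IL1RAP 205227_at (0.58 ± 0.068, adjusted p = 0.000255). Permuting within pairs can give no p under 0.0625, and it gave 0.0625 for the unequal changes of -0.83 (IL1B against IL1A), 2.32 (IL1RN against IL1B), 1.49 (IL1RN against IL1A), -1.02 (IL1R1 against IL1R2), -2.13 (IL1R1 against IL1RAP), 1.86 (IL18 against IL1B) and 0.81 (IL33 against IL1A). With IL33 under the background level, that last value only restates the fall of IL1A. The 3 passing pairs of probe sets went to an adjusted p of 0.125 there. Signal near background limits IL33, IL1RAPL1 and the dim probe sets of IL1A, IL1R1 and IL1RN.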
